A study of Homo sapiens with 9 samples.

Results

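The 10 genes ATF4, ATF5, ATF3, DDIT3, CEBPB, TRIB3, PPP1R15A, DDIT4, SESN2 and CHAC1, which are regulators and targets of the ATF4 branch of the cellular stress response, were followed in BEAS-2B cells after exposure to condensed e-cigarette aerosol. They were chosen by gene symbol, matched to the Ensembl identifiers of a count table with 63187 genes, and all 10 were found and passed the filter of at least 10 counts in at least 3 libraries that left 16030 genes for testing. BEAS-2B cells are human bronchial epithelial cells that were immortalized in culture, so every library comes from 1 line. Untreated cells were the control. PG/VG cells received condensed aerosol of propylene glycol with vegetable glycerin, the carrier alone, and EC cells that of a Virginia tobacco flavored liquid with 18 mg/mL nicotine, each at 2% (v/v) for 24 h. Each condition had 3 biological replicates with the numbers 2, 3 and 4, which the labels also give as the batch, so each batch holds 1 library of each condition. Both treatments were compared with the same 3 control libraries, so a like value in both is not repeated evidence.

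ATF4 is a bZIP transcription factor, a protein that binds DNA as a dimer through a basic region and a leucine zipper. Its synthesis is known to be controlled mainly at translation: when kinases phosphorylate the initiation factor eIF2alpha, most protein synthesis slows while the ATF4 message is translated more, a program called the integrated stress response. ATF4 then induces genes for amino acid synthesis and transport, tRNA charging and antioxidant defense, together with other bZIP factors and with genes that feed back on the response. A message level, which is what was measured here, therefore does not give the amount of ATF4 protein.

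Promoter windows of the 10 regulators were searched for 3 motifs that bZIP factors are known to bind, so that a reader can see which of the genes carry such letters close to a start site. The windows ran from 250 bases before to 50 bases after each RefSeq start (GRCh38.p14), with 18 windows for the 10 genes, and both strands were read. The core of the C/EBP-ATF response element, TGATGNAA, was found in windows of ATF3 and CHAC1 and in 3.62% of all 35116 windows. The cAMP response element TGACGTCA was found for PPP1R15A and in 1.85% of all windows, and the AP-1 site TGANTCA for ATF5 and DDIT3 and in 7.71%. No match was found in the windows of ATF4, CEBPB, TRIB3, DDIT4 or SESN2. The matches are shown in capitals in 30 bases of the strand of the gene, and each is a match of letters, not evidence of binding.
ATF3: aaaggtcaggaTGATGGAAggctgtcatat
CHAC1: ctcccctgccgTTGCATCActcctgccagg
PPP1R15A: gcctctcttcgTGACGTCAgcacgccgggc
ATF5: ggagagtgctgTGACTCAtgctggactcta
DDIT3: gcgcgcgcaTGACTCAcccacctcctccgt
The ATF3 stretch lay at chr1:212565205-212565234 and its match began 191 bases before the start. The CHAC1 stretch lay at chr15:40953251-40953280 with the match on the opposite strand, 209 bases before the start. The others were PPP1R15A at chr19:48872352-48872381 (58 bases before), ATF5 at chr19:49928707-49928736 (188 bases before) and DDIT3 at chr12:57520735-57520764 on the minus strand (241 bases before). The stretches of CHAC1, PPP1R15A and ATF5 fell inside an exon of a longer GENCODE transcript of the same gene, and those of ATF3 and DDIT3 outside the exons of their gene.

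The libraries held 16168260 to 24917838 counts on genes, and the 3 controls were the 3 smallest, with at most 17882770 counts. Depth thus moved with the exposure, and its part in the results was not tested. Of 10 epithelial markers, 8 had a mean of at least 1 CPM (summed level 1614 to 3092 CPM, led by KRT8). Keratins KRT7, KRT8 and KRT18 were present, but EPCAM (1.48 CPM on average), CDH1 (0.795 CPM) and KRT5 (0.0157 CPM) were low. Of 10 mesenchymal markers, 8 had a mean of at least 1 CPM as well (3748 to 7596 CPM, led by FN1). The line thus held some epithelial keratins beside mesenchymal messages. Of the leukocyte and endothelial markers, 1 of 8 and 1 of 6 had a mean of at least 1 CPM, and CD3E was without a count. These were CD14 (5.81 CPM) and CDH5 (4.82 CPM), both above EPCAM and CDH1. Batch 4 stood apart: the summed epithelial level was 1614 to 1883 CPM there and 2376 to 3092 CPM in batches 2 and 3. Results are therefore given within each batch, and those that rest on batch 4 also without it.

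Per kilobase of exon, ATF4 was by far the most abundant of the regulators, with a mean of 279 ± 49.5 (SD, n = 9 libraries) TMM-normalized CPM (counts scaled to the size of the library) per kb, and it was above every other regulator in all 9 libraries. CEBPB (75.4 ± 10.3), DDIT4 (72.2 ± 23) and TRIB3 (71.6 ± 30.8) followed and did not differ from each other beyond their spread, and PPP1R15A (52.5 ± 9.53) lay 19.1 below TRIB3, within the spread of TRIB3. SESN2 (31.5 ± 3.61) lay below PPP1R15A in all 9 libraries. SESN2, CHAC1 (30.8 ± 11.4) and DDIT3 (25.3 ± 3.50) were again not separated beyond their spread. ATF5 (11.3 ± 3.75) and ATF3 (10.9 ± 2.24) were lowest and could not be ordered. The genes also differed in how widely they varied between libraries: TRIB3 spanned a 3.43-fold range of CPM, CHAC1 3.09-fold, ATF5 2.69-fold, DDIT4 2.35-fold and ATF3 2.20-fold, whereas SESN2 spanned 1.40-fold.

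**Figure D1:**
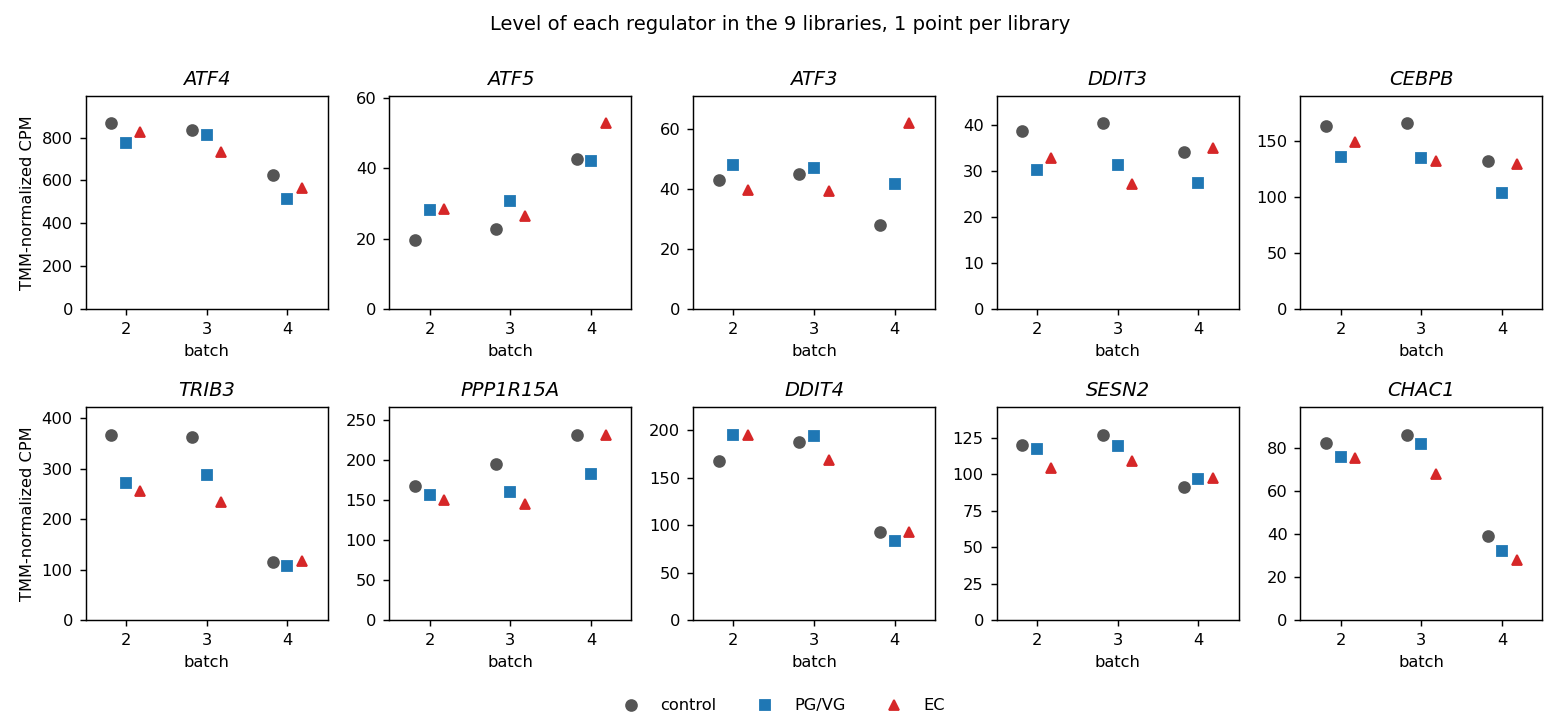
TMM-normalized CPM (y axis, from 0) of each of the 10 regulators in batches 2, 3 and 4 (x axis), 1 point per library, with control as circles, PG/VG as squares and EC as triangles. TRIB3, CHAC1 and DDIT4 drop in all 3 libraries of batch 4, ATF5 rises there, and ATF3 in batch 4 runs from 28.0 CPM in control to 61.7 CPM in EC.

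In EC vs. control, 3 of the 10 regulators changed by edgeR's quasi-likelihood test with the batch in the model and Benjamini-Hochberg adjustment over all genes tested (adjusted p under 0.05). ATF5 was upregulated (log2 fold change, LFC, 0.34 ± 0.10 SE), and TRIB3 (-0.39 ± 0.10) and CHAC1 (-0.31 ± 0.08) were downregulated. Their adjusted p values were 0.0314, 0.0145 and 0.0121. Over all genes, 13.5% changed in this comparison, 8.07% upward and 5.38% downward, against which the 3 of 10 regulators are to be read. The other 7 did not pass, with adjusted p between 0.0985 (DDIT3) and 0.909 (DDIT4), and 6 of the 10 reached an unadjusted p under 0.05, as did 4391 of the 16030 genes tested. The median LFC of the regulators was -0.15 and that of all genes tested 0.01. No regulator had EC libraries that lay wholly outside the range of the controls in CPM, which 17.3% of all genes had. Without the replicate block, that is without the batch in the model, none of the 10 passed in EC vs. control, and 16 of all genes did.

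In PG/VG vs. control, 2 of the 10 changed, both downward: DDIT3 (LFC -0.35 ± 0.10, adjusted p = 0.0472) and CEBPB (-0.31 ± 0.07, adjusted p = 0.0171). The share of all genes was 4.54%, with 2.63% upward and 1.90% downward. DDIT3 was the only regulator whose PG/VG libraries all lay below the controls, which 14.2% of all genes showed in one direction or the other. TRIB3 (-0.30 ± 0.10) missed the threshold with an adjusted p of 0.0829, and PPP1R15A (-0.24 ± 0.08) with 0.103. As in EC, 6 of the 10 had an unadjusted p under 0.05, beside 3225 of the 16030 genes tested. The median LFC was -0.16 against 0.01 over all genes tested. Without the replicate block none passed here either, and 1 gene of all did.

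No regulator differed beyond the test between EC and PG/VG. In EC vs. PG/VG, 0 of the 10 passed edgeR's quasi-likelihood test, 0 had an unadjusted p under 0.05, and DESeq2 also called 0, where 0.855% of all genes passed, 0.555% upward and 0.299% downward. The LFC ran from -0.15 (CHAC1, 95% confidence interval -0.32 to 0.01, adjusted p = 0.429) to 0.15 (CEBPB, -0.0043 to 0.30, adjusted p = 0.406). The intervals of 9 of the 10 regulators lay between -0.32 and 0.30, and that of ATF3, the widest, between -0.69 and 0.77. None had EC libraries wholly above or below the PG/VG libraries, against 7.91% of all genes.

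**Figure D2:**
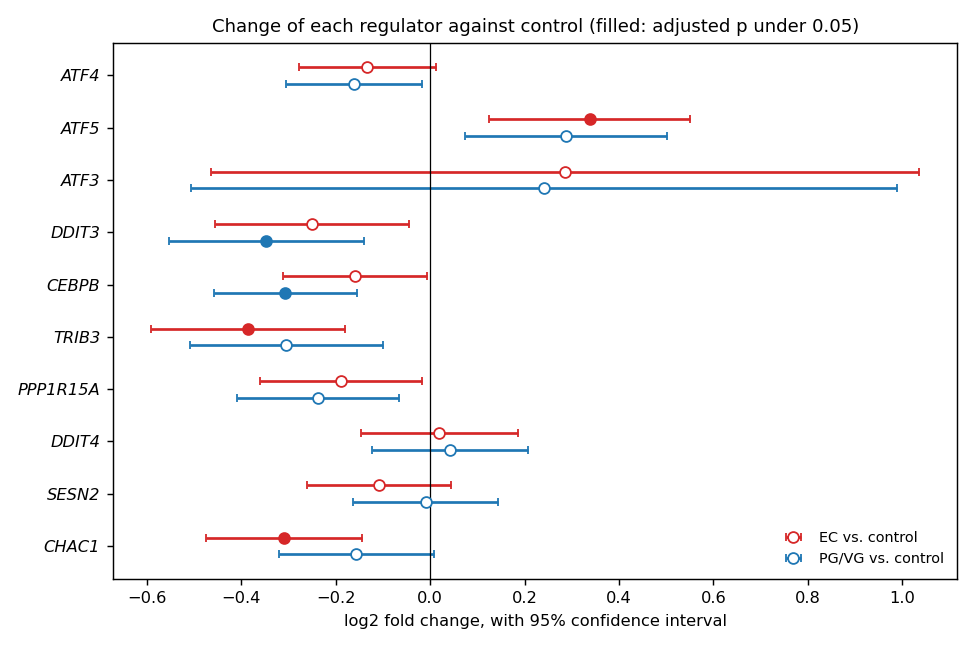
Log2 fold change (x axis) of each regulator (y axis) against control in EC and in PG/VG, with bars for the 95% confidence interval of edgeR's fit on 9 libraries; filled points have an adjusted p under 0.05. ATF5, TRIB3 and CHAC1 are filled in EC, DDIT3 and CEBPB in PG/VG, and the interval of ATF3 is the widest, from -0.47 to 1.04 in EC.

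The regulators differed more between the batches than with either exposure, with a median absolute LFC of 0.46 against 0.22 in EC and 0.24 in PG/VG. The same medians for the whole set of tested genes were 0.23 between batches, 0.16 with EC and 0.14 with PG/VG. In batch 4 vs. the mean of batches 2 and 3, 8 of the 10 passed edgeR's quasi-likelihood test, against 40.6% of all genes (20.1% higher, 20.5% lower). TRIB3 (LFC -1.35 ± 0.09), CHAC1 (-1.25 ± 0.07), DDIT4 (-1.04 ± 0.07), ATF4 (-0.51 ± 0.06), SESN2 (-0.28 ± 0.06) and CEBPB (-0.27 ± 0.06) were lower in batch 4, and ATF5 (0.82 ± 0.08) and PPP1R15A (0.40 ± 0.07) were higher. ATF3 (-0.02 ± 0.25, adjusted p = 0.967) and DDIT3 (-0.05 ± 0.09, adjusted p = 0.670) did not pass. For 7 of the 10, the 3 libraries of batch 4 lay wholly outside the 6 others, as for 29.1% of all genes. The 3 libraries of a batch share that batch, so this describes these batches and speaks for no others.

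ATF4 itself did not change beyond the test in either treatment, although every treated library was below the control of its batch. It stood at 866, 835 and 626 CPM in control replicates 2, 3 and 4, at 776, 812 and 512 CPM in PG/VG, and at 827, 732 and 565 CPM in EC. The control of batch 4 was thus below every treated library of batches 2 and 3, and the conditions overlapped. The LFC was -0.13 ± 0.07 in EC vs. control (adjusted p = 0.224) and -0.16 ± 0.07 in PG/VG vs. control (adjusted p = 0.195), with intervals of -0.28 to 0.01 and -0.31 to -0.02. The gene lies on chromosome 22 (39519695 to 39522683, plus strand, GRCh38) and shares no exon with another annotated gene.

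ATF5, a close relative of ATF4 that is known for its part in the mitochondrial stress response, rose in EC. Its levels were 19.6, 22.9 and 42.8 CPM in the controls, 28.1, 30.7 and 42.0 CPM in PG/VG and 28.4, 26.4 and 52.8 CPM in EC. Each EC library was above the control of its batch, by 0.51, 0.20 and 0.29 on the log2 scale in batches 2, 3 and 4, and PG/VG was above it in batches 2 and 3 only. In EC vs. control this is a rise of 26.4% (adjusted p = 0.0314), which was lost when control replicate 2 or 3 or EC replicate 2 or 4 was left out, with an LFC from 0.24 to 0.33 in those fits and an adjusted p up to 0.236. Without batch 4 the LFC was 0.35 and did not pass (adjusted p = 0.0707). DESeq2 gave an LFC of 0.33 and an adjusted p of 0.0547. The PG/VG value was 0.29 ± 0.10 (adjusted p = 0.115). Of the exon length of ATF5, 22.1% overlaps NUP62, IL4I1 and MIR4751, and the strand setting of the counting is not stated, so part of its reads could not be assigned without doubt. NUP62, at 125 to 149 CPM, had an LFC of -0.15 in EC (adjusted p = 0.153).

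ATF3, a stress-induced bZIP factor that is known as a repressor of its own and other stress genes, was the regulator whose response to EC differed most between batches. The controls held 42.8, 44.8 and 28.0 CPM, PG/VG 47.9, 46.9 and 41.5 CPM, and EC 39.6, 39.4 and 61.7 CPM. EC replicate 4 was the highest of all 9 libraries and control replicate 4 the lowest, while in batches 2 and 3 EC lay just below the control. The pooled LFC was 0.29 ± 0.29 (adjusted p = 0.609) in EC and 0.24 ± 0.29 (adjusted p = 0.719) in PG/VG. Within batches 2 and 3 the fitted EC effect was -0.15, and in batch 4 it was 1.14. The difference of 1.29 ± 0.15 passed edgeR's quasi-likelihood test (adjusted p = 0.00973), and ATF3 was 1 of 2 genes among the 16030 tested (0.0125%) that did. The batch 4 effect rests on 1 library of each condition, which the fit assumes to vary like the rest. The test was added after the data had been seen.

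The other gene was EGR1, an immediate early transcription factor, which is no regulator of the list and is named after its value was seen. It stood at 67.7, 72.1 and 17.1 CPM in control, 64.0, 54.8 and 25.8 CPM in PG/VG, and 48.0, 53.0 and 47.2 CPM in EC, with a difference of 1.94 between batch 4 and the others (adjusted p = 0.00176). As for ATF3, the control of batch 4 was the lowest of all libraries. In PG/VG vs. control, the difference for ATF3 was 0.45 ± 0.15 (adjusted p = 0.742), and 0 of all genes passed (0%), with 1042 at an unadjusted p under 0.05 and 1 called by DESeq2. For EC, 1211 genes had an unadjusted p under 0.05 and DESeq2 called 4. TRIB3 came next among the regulators, with an EC effect of -0.58 in batches 2 and 3 and 0.02 in batch 4. That difference was 0.60. The signed LFC in EC was also higher in batch 4 for DDIT3 (by 0.44), SESN2 (0.31), PPP1R15A (0.30) and CEBPB (0.21). It went from -0.40 in batches 2 and 3 to 0.04 in batch 4 for DDIT3, and from -0.21 to 0.10 for SESN2. For PPP1R15A it went from -0.29 to 0.01 and for CEBPB from -0.23 to -0.02. The signed LFC was lower there for ATF4 (-0.02), DDIT4 (-0.04), ATF5 (-0.07) and CHAC1 (-0.26). For CHAC1 the fall was thus larger in batch 4 (-0.49) than in batches 2 and 3 (-0.23). None of these differences passed.

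DDIT3, which encodes CHOP, a bZIP factor known for promoting cell death under prolonged stress, was lower after PG/VG in every batch. It stood at 38.7, 40.4 and 34.1 CPM in the controls, 30.3, 31.4 and 27.4 CPM in PG/VG and 32.9, 27.2 and 35.0 CPM in EC. The PG/VG libraries lay wholly below the controls, by 0.34, 0.35 and 0.31 on the log2 scale within batches 2, 3 and 4, a fall of 21.4% in the fit. The EC libraries overlapped the controls, since EC replicate 4 was 0.04 above its control, and the LFC of -0.25 ± 0.10 had an adjusted p of 0.0985. The PG/VG call was lost without control replicate 2 or 3 or PG/VG replicate 2 or 4, with an adjusted p up to 0.271 and an LFC from -0.35 to -0.27 in those fits. Without batch 4 the LFC was -0.38 in PG/VG (adjusted p = 0.0843) and -0.41 in EC (adjusted p = 0.0301). Of the exon length of DDIT3, 39.6% overlaps MARS1, MBD6 and ENSG00000285133. MARS1, the cytosolic methionyl-tRNA synthetase, was at 224 to 619 CPM and had an LFC of -0.13 in PG/VG (adjusted p = 0.273) and -0.38 in EC (adjusted p = 4.17e-04), and its part in the DDIT3 values was not tested.

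CEBPB, a C/EBP factor that is known to pair with ATF4 on target promoters, also fell after PG/VG. The levels were 164, 166 and 132 CPM in control, 136, 135 and 104 CPM in PG/VG, and 149, 132 and 130 CPM in EC. PG/VG was below the control of its batch by 0.27, 0.30 and 0.35 on the log2 scale, although PG/VG replicates 2 and 3 exceeded control replicate 4. The fall of 19.2% (adjusted p = 0.0171) was lost without control replicate 3, PG/VG replicate 2 or PG/VG replicate 4, with an adjusted p up to 0.136, and also without batch 4 (LFC -0.30, adjusted p = 0.0683). EC was lower in all 3 batches too, by 0.02 to 0.32, with an LFC of -0.16 ± 0.07 that did not pass (adjusted p = 0.16). CEBPB-AS1, an antisense gene that covers 12.6% of its exon length, was at 0.562 to 1.86 CPM, far below CEBPB.

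TRIB3, a pseudokinase induced by ATF4 and CHOP that is known to restrain both, had the largest fall of the regulators in EC. Control replicates 2, 3 and 4 held 367, 363 and 116 CPM, the PG/VG libraries 272, 288 and 107 CPM, and the EC libraries 255, 233 and 118 CPM. In batches 2 and 3 both treatments lay below the control, EC by 0.52 and 0.63 and PG/VG by 0.43 and 0.33 on the log2 scale, while in batch 4 EC and control were 0.02 apart and all 3 conditions were low. The fitted fall in EC was 23.5% (adjusted p = 0.0145). It was lost without control replicate 2 or 3 or EC replicate 2 or 3, with an adjusted p up to 0.121 and an LFC from -0.36 to -0.27 in those fits. In batches 2 and 3 alone, a choice made after seeing the data, TRIB3 passed in PG/VG as well (LFC -0.40, adjusted p = 0.021). DESeq2 also called it in PG/VG (LFC -0.32, adjusted p = 0.0427).

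PPP1R15A encodes GADD34, the stress-induced subunit that directs a phosphatase to eIF2alpha and so ends the response. It stood at 168, 195 and 231 CPM in control, 157, 161 and 183 CPM in PG/VG and 150, 146 and 232 CPM in EC. It was the regulator, besides ATF5, that was higher in batch 4. All 3 PG/VG libraries lay below the control of their batch, by 0.10, 0.28 and 0.33, and EC lay below it by 0.17 and 0.42 in batches 2 and 3 and 0.01 above it in batch 4. Neither LFC passed in the main fit, with -0.19 ± 0.08 in EC (adjusted p = 0.138) and -0.24 ± 0.08 in PG/VG (adjusted p = 0.103). With ComBat-Seq and DESeq2 both passed (EC -0.21, adjusted p = 0.0497, and PG/VG -0.25, adjusted p = 0.0237). With PG/VG and control fitted alone, PG/VG passed too (-0.25, adjusted p = 0.017). Without batch 4 the EC value was -0.31 and passed (adjusted p = 0.0326).

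DDIT4 and SESN2 encode REDD1 and Sestrin 2, which are known to restrain the growth kinase complex mTORC1, and neither changed beyond the test in any comparison of the treatments. DDIT4 stood at 167, 187 and 92.9 CPM in control, 195, 194 and 82.9 CPM in PG/VG and 195, 168 and 92.6 CPM in EC. The EC value was 0.22 above control in batch 2, 0.16 below in batch 3 and level in batch 4 (LFC 0.02 ± 0.08, adjusted p = 0.909), and the interval of -0.15 to 0.19 bounds the change. In PG/VG the LFC was 0.04 ± 0.08 (adjusted p = 0.829). SESN2 stood at 120, 127 and 90.9 CPM in control, 117, 119 and 96.9 CPM in PG/VG and 104, 109 and 97.4 CPM in EC. In EC it was 0.20 and 0.22 below control in batches 2 and 3 and 0.10 above in batch 4, with an LFC of -0.11 ± 0.07 (adjusted p = 0.371), and in PG/VG the LFC was -0.01 ± 0.07 (adjusted p = 0.960). In batch 4, DDIT4 fell by 51.5% against batches 2 and 3.

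CHAC1, an enzyme that degrades glutathione and is a known target of ATF4 and ATF3, was lower in EC in every batch. It stood at 82.3, 86.1 and 39.1 CPM in control, 75.6, 81.8 and 32.1 CPM in PG/VG and 75.2, 68.0 and 27.9 CPM in EC. The differences from the control of the same batch were -0.13, -0.34 and -0.47 in EC. For PG/VG they were -0.12, -0.07 and -0.28. In the fit CHAC1 fell by 19.3% in EC (adjusted p = 0.0121). The call was lost without control replicate 4, EC replicate 3 or EC replicate 4, with an adjusted p up to 0.0785, and in batches 2 and 3 alone it was -0.25 (adjusted p = 0.106). The PG/VG value was -0.16 ± 0.08 (adjusted p = 0.280). CHAC2, the paralog of CHAC1, had an LFC of 0.04 in EC (adjusted p = 0.877).

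**Figure D3:**
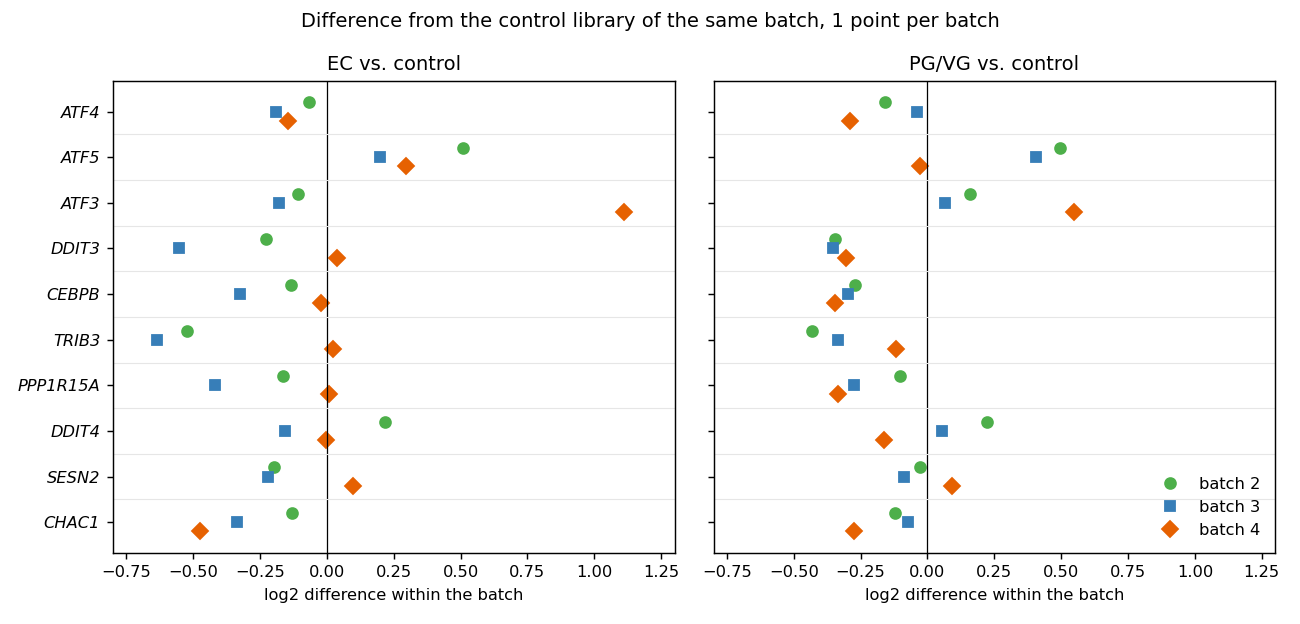
Difference of log2(CPM + 1) (x axis) between the treated library and the control library of the same batch for each regulator (y axis), 1 point per batch, with EC on the left and PG/VG on the right. ATF4, CEBPB and CHAC1 lie left of 0 in all 3 batches of both panels, DDIT3, TRIB3 and PPP1R15A do so in PG/VG, and ATF3 in EC is at 1.11 in batch 4 and below 0 in batches 2 and 3.

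The genes whose levels ran most like those of ATF4 and of TRIB3, the most variable regulator, were sought by Pearson's r of log2(CPM + 1) over the 9 libraries among 10869 genes with a mean of at least 5 CPM. For ATF4 they were RAB32 (r = 0.995), NAA60 (0.987) and DUT (0.987), and for TRIB3 OSCAR (0.998), KCNG1 (0.995) and CCN2 (0.990). With the batch means removed, r was 0.976, 0.968 and 0.950 for the ATF4 set, and 0.992, 0.966 and 0.952 for the TRIB3 set. The libraries share batches and conditions and the genes were picked as the highest of many, so these values only describe the likeness.

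Among themselves, the regulators fell into patterns that the batch set in part. Over the 9 libraries, ATF4 and CHAC1 had r = 0.965, TRIB3 and CHAC1 0.965, and DDIT4 and CHAC1 0.962, while ATF5 ran against TRIB3 (-0.934). With the batch means removed, DDIT4 and CHAC1 were at 0.184, whereas DDIT3 and CEBPB rose from 0.795 to 0.952 and DDIT3 and PPP1R15A from 0.431 to 0.938. These are descriptions of 9 libraries with shared batches, without a test.

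The genes around the regulators were described by 9 lists of known pathway members, whose counts are to be read against 8.07% of all genes higher and 5.38% lower in EC, and 2.63% and 1.90% in PG/VG. Of the 15 amino acid and one-carbon enzymes that ATF4 is known to induce, 9 fell in EC and 0 rose, and 13 had an LFC below 0, with a median LFC of -0.33 against 0.01 over all genes tested. PYCR1, which makes proline, fell from 145, 161 and 42.8 CPM in control to 102, 96.1 and 27.6 CPM in EC (LFC -0.63 ± 0.07, adjusted p = 7.08e-06), and PG/VG was between them with 117, 118 and 32.8 CPM (-0.38 ± 0.07, adjusted p = 0.00330). PSAT1, of serine synthesis, fell by 0.45 ± 0.06 (adjusted p = 6.37e-05), CTH, of cysteine synthesis, by 0.58 ± 0.09 (9.64e-05) and PCK2, the mitochondrial PEP carboxykinase, by 0.45 ± 0.07 (2.55e-04). In PG/VG 2 enzymes fell, PYCR1 and CTH, with a list median of -0.15. ASNS, asparagine synthetase, did not pass in EC (-0.29, adjusted p = 0.307), and 49.3% of its exon length overlaps another gene.

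Of the 13 genes for tRNA charging, which are 12 synthetases and XPOT, a tRNA exporter, 12 fell in EC and 0 rose, with a median LFC of -0.34, and the remaining one, AARS1, had -0.15 (adjusted p = 0.138). GARS1 fell by 0.43 ± 0.06 (adjusted p = 1.13e-04), SARS1 by 0.39 ± 0.07, MARS1 by 0.38 ± 0.06 and YARS1 by 0.37 ± 0.06. In PG/VG the median was -0.14 and 0 passed edgeR's quasi-likelihood test, while DESeq2 called 3, and in EC vs. PG/VG the median was -0.20 with 0 called by edgeR and 4 by DESeq2. The medians within batches 2, 3 and 4 were -0.36, -0.36 and -0.28 in EC, and those of the enzymes -0.36, -0.43 and -0.29. Members of both lists were also lower in batch 4, with 13 of 15 enzymes (median -1.53) and 13 of 13 tRNA genes (-0.79) called lower, beside 20.5% of all genes. Without batch 4, EC vs. control called 9 enzymes and 12 tRNA genes. Without the replicate block, 0 of either list passed.

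Amino acid transporters went both ways in EC. Of 11 tested, 4 fell, among them SLC43A1 (-0.45 ± 0.10, adjusted p = 0.00681), SLC7A1 (-0.33 ± 0.07, adjusted p = 0.00258) and SLC38A2 (-0.29 ± 0.07, adjusted p = 0.00698), and SLC7A5, the large neutral amino acid transporter LAT1, rose (0.43 ± 0.08, adjusted p = 8.02e-04). SLC7A5 stood at 2033, 2159 and 935 CPM in control, 2106, 2178 and 1101 CPM in PG/VG and 2508, 2574 and 1542 CPM in EC. SLC7A5 was higher in each EC library than in the others of its batch, and it differed between EC and PG/VG (0.33, adjusted p = 0.0439), as did SLC7A1 (-0.33, adjusted p = 0.0233). Without PG/VG replicate 4, or without the replicate block, 0 genes of the 9 lists passed in EC vs. PG/VG, so both calls were lost. Without PG/VG replicate 3, 0 genes of the lists passed upward, so the SLC7A5 call was also lost. Without PG/VG replicate 2 or EC replicate 2, 0 passed downward, so the SLC7A1 call was also lost. In PG/VG, SLC43A1 alone fell (-0.61 ± 0.11, adjusted p = 0.00194).

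Of 23 other stress genes known as ATF4 targets, 3 rose and 4 fell in EC. SQSTM1, the autophagy receptor p62, rose (0.50 ± 0.09, adjusted p = 0.00139), and BCL2L11 and KLHL24 rose by 0.37 and 0.34. EIF4EBP1, a translation inhibitor, fell by 0.39 ± 0.07 (adjusted p = 9.67e-04), CEBPG, a bZIP partner of ATF4, by 0.34 ± 0.07 (adjusted p = 0.00226), INHBE, at 1.89 CPM in EC, by 0.87 ± 0.22 (adjusted p = 0.00947), and MAP1LC3B by 0.32. Of these, EIF4EBP1 (-0.37, adjusted p = 0.00464) and MAP1LC3B (-0.31, adjusted p = 0.0339) also fell in PG/VG. EIF4EBP1, CEBPG and INHBE were lower in batch 4 as well, by 1.14, 0.99 and 3.73. INHBE had only 6, 8 and 4 counts in control, PG/VG and EC of batch 4, so that its fold is poorly determined.

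Upstream, the 4 eIF2alpha kinase genes did not pass in EC, with EIF2AK1 at 0.09, EIF2AK2 at 0.10, EIF2AK3 at 0.16 and EIF2AK4 at 0.04 (adjusted p from 0.370 to 0.768). Among the 24 genes of this list, 6 fell and 1 rose. EIF2A, a separate initiation factor and not a subunit of eIF2, fell (-0.32 ± 0.07, adjusted p = 0.00632). So did EIF2S2, the beta subunit of eIF2 (-0.26 ± 0.06, adjusted p = 0.00945), and EIF2B2, of its exchange factor (-0.31 ± 0.08, adjusted p = 0.0150). EIF2S1, which encodes eIF2alpha, did not pass in EC (-0.18, adjusted p = 0.074) or in PG/VG (-0.11, adjusted p = 0.38). OMA1, a mitochondrial protease, rose (0.43 ± 0.12, adjusted p = 0.0195). In PG/VG, EIF2A (-0.33, adjusted p = 0.0115) and EIF2B3 (-0.33, adjusted p = 0.0311) fell. The list median was -0.04 in EC and -0.03 in PG/VG.

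The genes of the ATF6 and XBP1 branches, which raise the folding capacity of the endoplasmic reticulum, had 5 of 27 higher and 1 lower in EC (median LFC 0.07). PDIA4 (0.29 ± 0.07, adjusted p = 0.00691), SEC24D (0.33 ± 0.08, adjusted p = 0.00691), CRELD2 (0.38 ± 0.09, adjusted p = 0.00693) and CALR (0.29 ± 0.08, adjusted p = 0.0138) rose. XBP1 itself fell (-0.23, adjusted p = 0.0326), and HSPA5, the main chaperone of this compartment, had -0.06 (adjusted p = 0.646). In PG/VG 0 of the 27 passed edgeR's quasi-likelihood test, with a median of 0.055.

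Relatives of the regulators went both ways. Of 17 paralogs tested, 5 rose and 2 fell in EC. SESN1 rose (0.55 ± 0.10, adjusted p = 5.71e-04), with 16.8, 14.6 and 26.3 CPM in control and 21.5, 20.6 and 44.7 CPM in EC, while SESN2 did not pass. SESN3 was called in both treatments, but on 3, 1 and 4 counts in the controls, 6, 9 and 34 in PG/VG and 13, 19 and 43 in EC, so that its fold is poorly determined. CEBPD rose in EC (0.51 ± 0.12, adjusted p = 0.00523) and differed from PG/VG (0.59, adjusted p = 0.0105), a call also lost without PG/VG replicate 3, PG/VG replicate 4 or the replicate block. CEBPB did not pass in either comparison. Among 26 other bZIP partners, 3 rose and 1 fell in EC, near the share of all genes. JUNB (0.53 ± 0.10, adjusted p = 0.00116) and CREB3 (0.26 ± 0.08, adjusted p = 0.0374) were among those that rose, JUN (-0.26 ± 0.07, adjusted p = 0.0133) fell, and JUN fell in PG/VG too (-0.28, adjusted p = 0.0198). Of 20 mTORC1 brakes and sensors, 3 rose in EC and 0 fell, namely SESN1, SESN3 and CASTOR2, an arginine sensor subunit (0.83 ± 0.16, adjusted p = 0.00169, from 3.05, 4.03 and 8.50 CPM in control to 8.09, 7.79 and 10.8 CPM in EC). In PG/VG 2 of the 20 rose and 0 fell, namely SESN3 and CASTOR2 (0.60 ± 0.17, adjusted p = 0.0397). CASTOR2 did not pass edgeR's quasi-likelihood test in EC vs. PG/VG (0.22, adjusted p = 0.577).

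**Figure D4:**
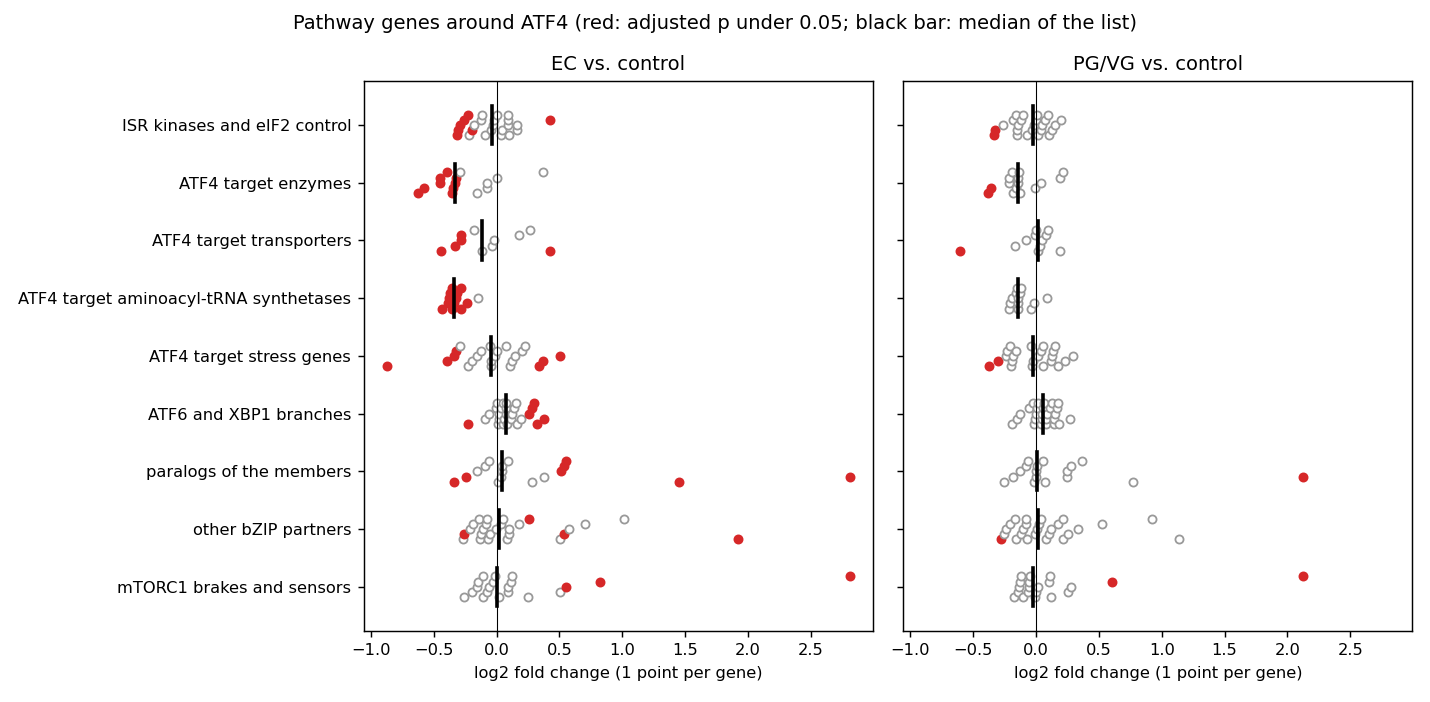
Log2 fold change (x axis) of every tested gene of 9 pathway lists (y axis) against control in EC and in PG/VG, 1 point per gene (a gene in 2 lists is drawn in both), with red for an adjusted p under 0.05 and a black bar for the median of the list. The enzymes (median -0.33) and tRNA genes (-0.34) sit left of 0 in EC with 9 of 15 and 12 of 13 red, and the ATF6 and XBP1 genes lie mostly right of 0.

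Over the 9 lists, 57 of 168 genes changed in EC, 19 upward and 38 downward, beside 13.5% of all genes. In PG/VG 10 changed, near the 4.54% of all genes. With library size as the only scaling, 56 changed in EC, 26 upward and 30 downward. The markers of the cell type moved with the exposure as well: in EC KRT18 (-0.46, adjusted p = 1.25e-04) and KRT7 (-0.45, adjusted p = 2.02e-04) fell, KRT17 (0.45, adjusted p = 0.00199) rose, and FN1 (-0.58, adjusted p = 1.13e-04) and TAGLN (-0.53, adjusted p = 4.48e-05) fell, and their part in these results was not tested. In RNA of whole cultures, fewer cells with a message and less message per cell cannot be told apart.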

How the data were processed

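Poly-A RNA of 9 BEAS-2B cultures was sequenced as paired reads. After trimming by fastp, the authors mapped reads to GRCh38.p12 using STAR and took counts over Ensembl exons from featureCounts (Subread 2.0.4 per the submitters' notes), leaving out reads that fit several places or genes; the strand setting is not given in the sources used here. The deposited values are raw counts per gene. The 9 columns matched 1 sample each by name, and 0 columns belonged to no sample.

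Counts were analysed in R 4.3.3 with edgeR 4.0.16. A gene was kept where 3 or more libraries had 10 or more counts, TMM factors (0.971 to 1.05) computed, and 1 robust quasi-likelihood model fitted to the 9 libraries with condition and batch as terms, with Benjamini-Hochberg adjustment over 16030 genes and a threshold of 0.05. The SE was approximated as the absolute LFC divided by the square root of the F statistic. The batch is a replicate block because the labels give the number as a batch. Libraries with the same number had correlated deviations from the condition means (r 0.334 to 0.707 in 9 pairs, against -0.539 to 0.426 in 18 others). Pairs of batch 2 with batch 3 had r of 0.28 to 0.426, like same-number pairs within these batches (0.334 to 0.399). The correlations thus set batch 4 apart but did not separate batches 2 and 3. No 2 replicates were duplicates. Alternatives were no replicate block, RLE or library size scaling, no filter or a stricter one, DESeq2 1.42.0, ComBat-Seq (sva 3.50.0) followed by DESeq2, the 2 groups alone, each library left out, and, chosen after seeing the data, batches 2 and 3 only and the interaction of exposure and batch 4. Steps were tested on simulated counts. Gene coordinates and overlaps are from GENCODE 44 on GRCh38, promoter windows from RefSeq.

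The 10 genes and the pathway lists were chosen with earlier results of these data known. All 10 genes were named, from each list at most 4 called genes by smallest adjusted p, or the 2 most abundant where none was called, and the 3 genes most like ATF4 and the widest-ranging regulator. Other genes were named after their values were seen: EGR1, AARS1, ASNS, XPOT, BCL2L11, KLHL24, MAP1LC3B, EIF2B3, EIF2S1, the 4 kinases, XBP1, HSPA5, CHAC2, MARS1 and NUP62 at DDIT3 and ATF5, and KRT8, KRT5, EPCAM, CDH1 and CD3E. Levels compared between genes are CPM per kb of exon. Some genes that this rule would name are not reported here.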

Additional observations from a re-analysis of the deposited data

Results flagged for a closer look

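For ATF3, the LFC in EC vs. control was larger in batch 4 than in batches 2 and 3 by 1.29 ± 0.15 (edgeR's quasi-likelihood test, adjusted p = 0.00973), a difference of effects between batches that was itself tested. ATF3 was higher in EC in 1 batch and lower in the other 2. The difference lay between 1.26 and 1.34 under RLE scaling, library size scaling, both other filters, DESeq2 and with each library of batches 2 and 3 left out in turn. All of these fits used the same EC and control libraries of batch 4, so none could test how far the difference rests on them. With a library left out, too few remained to set the spread well, so only the size of the difference is given. The difference cannot be computed without a library of EC or control in batch 4, since there is 1 of each.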

How the results depend on the processing

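The number of regulators called in EC vs. control was 3 with RLE scaling, library size scaling, either other filter and the 2 groups alone, and 2 with DESeq2. With no replicate block it was 0 in EC and 0 in PG/VG, and 0 genes of the 9 lists passed. ComBat-Seq followed by DESeq2, the order of steps that the study describes, gave 6 in EC and 5 in PG/VG. It added DDIT3, CEBPB and PPP1R15A in EC, and ATF5, TRIB3 and PPP1R15A in PG/VG. In PG/VG it was 1 with library size scaling, 4 with the 2 groups alone and 1 in batches 2 and 3 only, where TRIB3 passed and DDIT3 and CEBPB did not. With batches 2 and 3 only, EC gave 3, namely DDIT3, TRIB3 and PPP1R15A. With each library left out in turn, 1 to 3 were called in EC, 0 to 4 in PG/VG and 0 in EC vs. PG/VG. In the comparison of batches 8 or 9 were called throughout. Among genes of the 9 lists, 34 to 55 were called in EC, 3 to 22 in PG/VG and 0 to 8 in EC vs. PG/VG with a library left out, and for the enzymes 0 to 4 in PG/VG and 0 to 1 in EC vs. PG/VG, for the tRNA genes 0 to 3 and 0 to 1. In PG/VG the lists gave 17 with DESeq2, 40 with ComBat-Seq and DESeq2 and 27 with the 2 groups alone, and in EC vs. PG/VG 6 with library size scaling, 10 with no filter, 11 with DESeq2, 29 with ComBat-Seq and DESeq2 and 9 with the 2 groups alone. For the enzymes ComBat-Seq gave 7 in PG/VG and 7 in EC vs. PG/VG, and the 2 groups alone 4 and 1, DESeq2 2 and no filter 1 in EC vs. PG/VG. For the tRNA genes in PG/VG, RLE scaling, the stricter filter and batches 2 and 3 only gave 1, DESeq2 and the 2 groups alone 3 and ComBat-Seq 10, and in EC vs. PG/VG no filter gave 2, DESeq2 4, ComBat-Seq 10 and the 2 groups alone 1. The share of all genes that passed in each setting is not given beside these counts. A higher count, as with ComBat-Seq, is therefore not to be read as a stronger response of the regulators or lists.

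Some LFC changed sign, none of them called in either fit. Most were near 0 in the main fit, but ATF3 was not, with 0.29 in EC and 0.24 in PG/VG. DDIT4 was -0.0067 in EC with ComBat-Seq, SESN2 0.0161 in PG/VG with library size scaling and 0.0045 with no filter, DDIT4 0.0126 in EC vs. PG/VG and ATF3 0.0269 in the comparison of batches with library size scaling. With batches 2 and 3 only, ATF3 was -0.1653 in EC, and in EC vs. PG/VG ATF4 was -0.0281, ATF5 -0.0957, ATF3 -0.2620, DDIT3 -0.0351 and PPP1R15A -0.1020. With a library left out, the LFC in EC ran from -0.0887 to 0.4670 for ATF3 and -0.0820 to 0.1070 for DDIT4, and in PG/VG from -0.0215 to 0.4006 for ATF3, -0.0583 to 0.1173 for DDIT4 and -0.0841 to 0.0278 for SESN2. In EC vs. PG/VG the ranges were -0.0286 to 0.1035 for ATF4, -0.1043 to 0.1550 for ATF5, -0.3391 to 0.2315 for ATF3, -0.0491 to 0.2505 for DDIT3, -0.2448 to 0.0446 for TRIB3, -0.0842 to 0.1598 for PPP1R15A and -0.1062 to 0.0794 for DDIT4. In the comparison of batches they were -0.4047 to 0.2438 for ATF3, which passed without EC replicate 4 (adjusted p = 0.0042), and -0.1979 to 0.0287 for DDIT3. The cause of these changes was not tested. The controls had the fewest counts, and the SE in EC vs. control was largest for ATF3 (0.288), followed by ATF5 (0.102) and DDIT3 (0.099).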
